A study of Mus musculus with 6 samples.

Results

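Ribosome biogenesis and nucleolar factors were followed here in RAW264.7, a mouse macrophage-like cell line, polarized with interleukin-4. They are 57 genes picked by name out of 25124 in the deposited TPM table (transcript abundance, a level scaled for transcript length and library depth). By known role, 24 serve the small ribosomal subunit, 20 the large subunit, 8 the small nucleolar ribonucleoproteins (snoRNPs), and 5 are other nucleolar factors. The M2 group had IL-4 at 10 ng/ml, and the M0 group had no IL-4. Both groups are the same control line, which had received a Cas9 plasmid lacking a guide RNA sequence so that it could be set beside an E4BP4 knockout, and both grew in 25 mM glucose medium with 10% serum. Each group has 3 libraries of poly(A) RNA made from 200 ng of total RNA. The labels give the line's making without saying whether it is a clone, and the sources used here do not state how long IL-4 was present.

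The libraries held 18139902 to 19511192 reads in M2 and 15615639 to 18110568 in M0, as recovered from the TPM values and the model lengths, and each member had at least 335 reads in every library. The 8 macrophage markers together reached 2163 to 2273 TPM in M2 and 2367 to 2584 TPM in M0. They moved in different directions in the fit named below. Adgre1 rose in M2 (log2 fold change 0.94), at 2.15 to 6.27 TPM over all libraries, and so did Fcgr1 (0.25). Itgam (-0.35) and Ptprc (-0.37) fell, and the rest were not called. Markers of fibroblasts, epithelium, endothelium, T cells and B cells summed to at most 1.06 TPM per list in any library, with Krt8 and Cd3g listed at 0 in all 6. Of 11202 genes that passed the filter on low values, 2248 rose and 2651 fell in M2 at an adjusted p under 0.05 by limma on log2(TPM + 1), with a median log2 fold change of -0.03. Nothing in the labels says that the libraries of a group came from separate cultures, so the spread between them may be technical. The titles mark all 3 M0 libraries, and no M2 library, as re-analysed, so IL-4 and any batch that goes with this mark cannot be told apart.

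Ribosomes are built in the nucleolus. RNA polymerase I transcribes a long precursor, snoRNPs guide its chemical modification, and the small-subunit processome and a chain of large-subunit assembly factors fold and cut it while ribosomal proteins join. Box C/D snoRNPs carry out ribose methylation and box H/ACA snoRNPs pseudouridylation. The transcription factor MYC is known in many cell types as an activator of these genes, and it binds the E-box sequence CACGTG with its partner MAX.

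Nearly the whole set stood higher in M2 cells. Of the 57 members, all of which passed the filter, 55 rose and 0 fell, where 20.1% of all tested genes rose and 23.7% fell. The exceptions were Nop10 and Bysl. Every M2 library lay above every M0 library for 56 of the 57, against 25.1% of tested genes. The members were named with earlier results of this comparison known, so these counts describe the set, and nothing is read from their distance to the background. Their median log2 fold change was 0.57, and single members ran from 0.10 (Nop10) to 1.03 (Wdr43). By the authors' deposited table, a positive log2 fold change at an adjusted p under 0.05 was found for 56 of the 57, within a range of 0.15 to 1.08, where 13.6% of the rows with a fold change in that table were called upward. Together the 57 genes held 1.03% to 1.07% of the listed TPM in M2 libraries and 0.695% to 0.717% in M0 libraries. The listed TPM summed to 550163.2 to 559556.5 per library, and the shares are of that sum. In bulk RNA, a change in the number of cells that express a gene and a change in RNA per cell cannot be told apart.

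**Figure D1:**
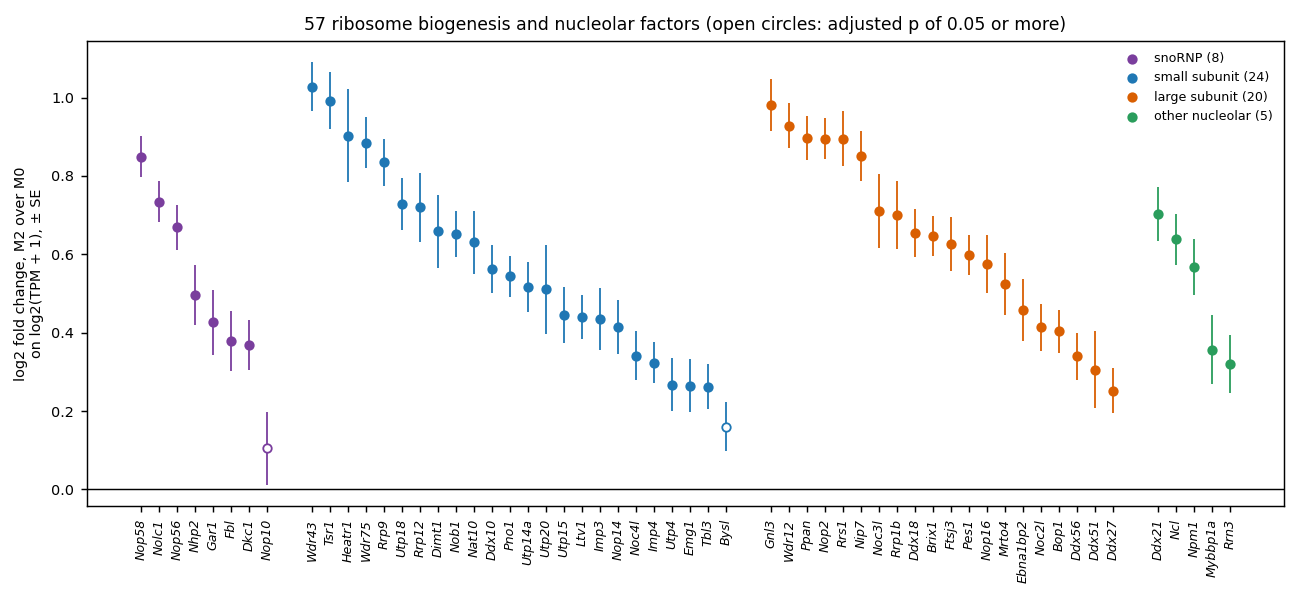
Log2 fold change of M2 over M0 on log2(TPM + 1) for each of the 57 genes, grouped by role and ordered within each group, with bars for the SE of the fit (3 libraries per group). All points lie above 0, from 0.10 for Nop10 to 1.03 for Wdr43, and the open circles of Nop10 and Bysl did not pass the test.

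The groups overlapped widely in the size of their change. The median log2 fold change was 0.64 for large-subunit factors, which ran from 0.25 to 0.98, and 20 of 20 rose. It was 0.53 for small-subunit factors, from 0.16 to 1.03, and 23 of 24 rose. For snoRNP factors it was 0.46, from 0.10 to 0.85, with 7 of 8 that rose, and for the other nucleolar factors 0.57, from 0.32 to 0.70, with 5 of 5. A difference between these groups was not tested. Across the 57 genes the fold change had a Spearman rho of -0.079 with the M0 level and of 0.167 with the length of the transcript model, given as a description over genes that share the same 6 libraries. The order of levels was nearly the same in M2 and M0, with a rho of 0.968.

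Start regions were looked up in RefSeq on GRCm38.p6, with 250 bases before and 50 after the start, and 51 of the 57 members matched. Myc, the gene of the activator named above, stood at 29.4, 28.8 and 31.2 TPM in M2 libraries. In M0 libraries it stood at 5.84, 6.71 and 6.72 TPM. Whether MYC has a part in the changes of the members was not tested. CACGTG, which reads the same on both strands, occurred in the window of 12 of the 51 members (23.5%), against 12.5% of 8737 tested genes with a window and 8.09% of all 27025 genes in the sequence table. Of the 13 sites, 8 began 3 to 41 bases after the start and 5 before it, so 61.5% lay after the start, where 13.9% of the 1318 sites of all tested genes did. CCGGAAG, a core that ETS factors bind, was found on either strand in 19 of 51 members (37.3%), against 22.4% of tested genes and 9.93% of all, and in 44.3% of the 97 further ribosome biogenesis genes with a window (a list described at the end). CCAAT occurred in 39.2% of members, against 43.3% of tested genes and 41.1% of all. None of the 3 motifs is part of another. The 12 members with CACGTG had a median log2 fold change of 0.53 and the 39 without it 0.63, and a difference between them was not tested. A match is a description of letters and not of a bound site. The sites are printed on the coding strand with CACGTG in capitals and up to 20 bases on each side, cut off at the window's end.
Imp4, chr1:34439688-34439733, plus strand: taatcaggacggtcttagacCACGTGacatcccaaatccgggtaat
Ltv1, chr10:13193088-13193129, minus strand: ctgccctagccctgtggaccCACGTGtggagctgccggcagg
Mybbp1a, chr11:72441347-72441376, plus strand: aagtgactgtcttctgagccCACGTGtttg
Nop2, chr6:125131803-125131848, plus strand: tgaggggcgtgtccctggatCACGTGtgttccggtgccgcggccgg
Pes1, chr11:3963957-3964002, plus strand: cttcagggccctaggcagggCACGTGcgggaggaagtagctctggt
Pno1, chr11:17211540-17211572, minus strand: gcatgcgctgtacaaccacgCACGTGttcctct
Rrn3, chr16:13780464-13780509, plus strand: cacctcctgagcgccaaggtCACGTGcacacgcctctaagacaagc
Rrn3, chr16:13780631-13780676, plus strand: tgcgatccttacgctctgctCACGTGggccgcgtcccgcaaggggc
Tsr1, chr11:74898084-74898129, plus strand: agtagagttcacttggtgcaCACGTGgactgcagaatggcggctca
Utp18, chr11:93885761-93885806, minus strand: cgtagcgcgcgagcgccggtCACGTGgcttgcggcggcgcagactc
Utp20, chr10:88826765-88826797, minus strand: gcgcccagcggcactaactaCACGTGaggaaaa
Utp4, chr8:106893635-106893680, plus strand: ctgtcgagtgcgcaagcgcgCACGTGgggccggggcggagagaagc
Wdr43, chr17:71616212-71616257, plus strand: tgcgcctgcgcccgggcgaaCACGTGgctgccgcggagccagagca
For the member with the largest fold change, and for the next in its group, which holds both motifs, the whole window follows, with CACGTG and CCGGAAG in capitals and the start at base 251.
Wdr43, chr17:71615965-71616264, plus strand: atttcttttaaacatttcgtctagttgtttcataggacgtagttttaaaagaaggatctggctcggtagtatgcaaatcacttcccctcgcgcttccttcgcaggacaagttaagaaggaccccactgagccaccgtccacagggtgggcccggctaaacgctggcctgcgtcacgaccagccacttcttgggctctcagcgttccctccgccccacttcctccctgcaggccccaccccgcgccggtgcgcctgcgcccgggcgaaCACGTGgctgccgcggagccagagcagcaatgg
Tsr1, chr11:74897830-74898129, plus strand: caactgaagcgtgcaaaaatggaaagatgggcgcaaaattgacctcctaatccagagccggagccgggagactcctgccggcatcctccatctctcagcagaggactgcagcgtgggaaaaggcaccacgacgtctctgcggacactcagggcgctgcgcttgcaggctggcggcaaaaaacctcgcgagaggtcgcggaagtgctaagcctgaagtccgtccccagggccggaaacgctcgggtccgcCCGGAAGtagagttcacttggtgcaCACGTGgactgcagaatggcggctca
In the Wdr43 window the single CACGTG lies 18 bases into the transcript. In the Tsr1 window CCGGAAG spans the start and CACGTG lies 25 bases into the transcript.

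The members that belong to the box C/D core are Nop56 and Nop58, its paired scaffold proteins, and the methyltransferase fibrillarin (Fbl). Nop58 stood at 295, 313 and 299 TPM in M2 libraries, against 170.0, 169 and 163 TPM in M0 libraries, a log2 fold change of 0.85 (SE 0.052). Nop56 reached 214, 208 and 192 TPM in M2, against 131, 128 and 126 TPM in M0, a log2 fold change of 0.67 (SE 0.058). Fbl had 91.3, 84.9 and 103 TPM in M2, against 75.2, 69.9 and 68.4 TPM in M0, a log2 fold change of 0.38 (SE 0.077). The M2 and M0 libraries did not overlap for any of the 3, and the rise was steepest for Nop58. The TPM of Nop58 was 3.23, 3.69 and 2.92 times that of Fbl in M2, against 2.26, 2.42 and 2.38 times in M0. These ratios set genes of different length side by side, and the lowest M2 value is that of replicate 3, a library in which short transcripts stood higher than in the other 2 (described further down).

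The box H/ACA core holds the pseudouridine synthase dyskerin (Dkc1) with Gar1, Nhp2 and Nop10. Dkc1 stood at 215, 241 and 241 TPM in M2, against 178, 189 and 172 TPM in M0 (log2 fold change 0.37, SE 0.065). Nhp2 had 242, 234 and 277 TPM in M2 and 179, 166 and 187 TPM in M0, a log2 fold change of 0.50 (SE 0.076). Both were separated between groups. Gar1 had 60.3, 53.6 and 60.2 TPM in M2, against 47.01, 38.4 and 43.6 TPM in M0 (log2 fold change 0.43, SE 0.084), so its lowest M2 library was 1.14 times its highest M0 library. Nop10, the smallest subunit, was the 1 member whose groups overlapped, at 137, 111 and 132 TPM in M2, against 130.3, 112 and 109.9 TPM in M0. Its log2 fold change of 0.10 (SE 0.094) did not pass, nor did it under any of 13 alternatives. The TPM of Dkc1 was 0.889, 1.03 and 0.872 times that of Nhp2 in M2, against 0.991, 1.14 and 0.923 times in M0, and that of Dkc1 over Gar1 gave 3.57, 4.49 and 4.003 in M2, against 3.78, 4.91 and 3.95 in M0, so both ratios overlapped between groups. Nolc1, a nucleolar chaperone that carries both kinds of snoRNP, had 89.8, 86.4 and 85.3 TPM in M2 and 50.6, 52.3 and 53.05 TPM in M0, a log2 fold change of 0.73 (SE 0.052), above that of each H/ACA subunit.

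**Figure D2:**
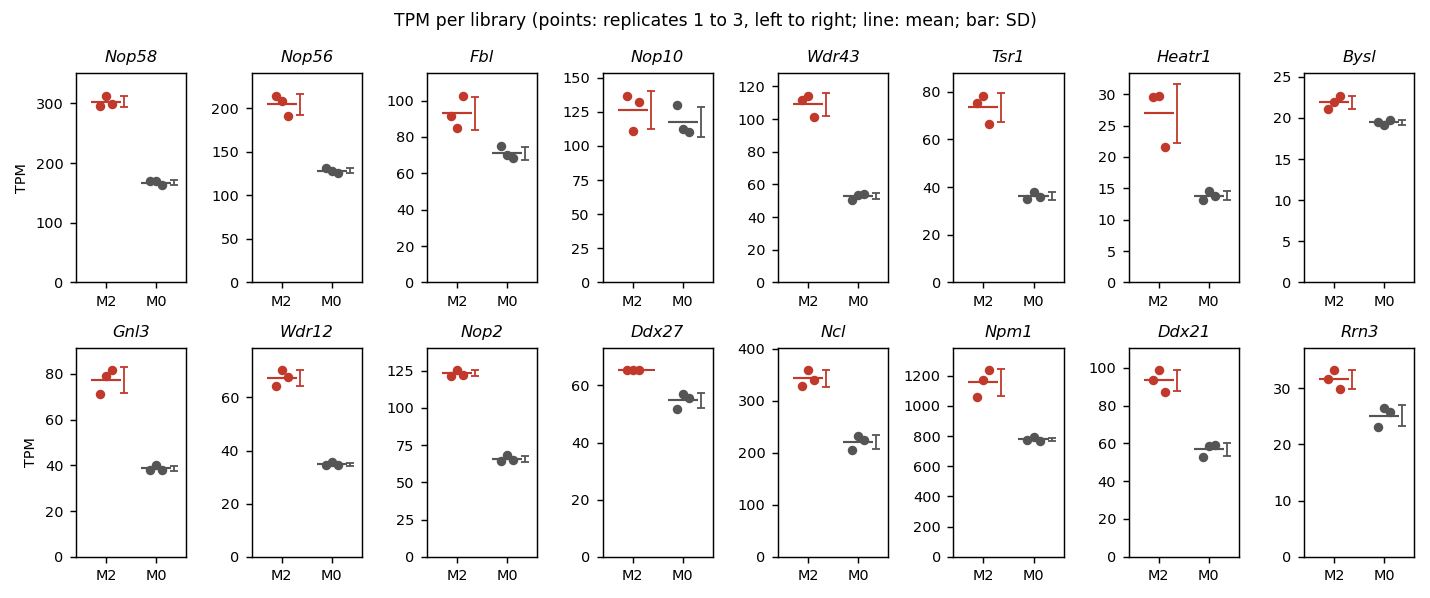
TPM in each library for 16 of the 57 genes, M2 left of M0, with points for replicates, a line at the mean and a bar for the SD (n = 3). Nop10 overlaps between groups, Bysl is separated by a narrow gap, and Wdr43, Tsr1 and Gnl3 average 2.06-fold, 2.02-fold and 2.003-fold their M0 level.

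Among small-subunit factors, the subcomplex that first joins the precursor and is tied to its transcription (t-UTP) did not change evenly. Wdr43 stood at 111, 114 and 101 TPM in M2, against 50.7, 53.6 and 54.3 TPM in M0, a log2 fold change of 1.03 (SE 0.063). Its partner Wdr75 had 99.9, 101 and 88.6 TPM in M2, against 51.7, 53.3 and 50.4 TPM in M0, a log2 fold change of 0.89 (SE 0.065). Heatr1, the largest protein of the subcomplex, had 29.6, 29.8 and 21.6 TPM in M2 and 13.1, 14.6 and 13.8 TPM in M0, a log2 fold change of 0.90 (SE 0.12). Utp15 and Utp4, WD-repeat subunits of the same subcomplex, lay at the other end. Utp15 had 18.2, 19.99 and 19.1 TPM in M2, against 12.97, 14.1 and 14.2 TPM in M0 (log2 fold change 0.45, SE 0.072), and Utp4 had 50.5, 51.3 and 44.8 TPM in M2, against 40.6, 41.6 and 38.9 TPM in M0 (log2 fold change 0.27, SE 0.068). The TPM of Wdr43 was thus 2.21, 2.23 and 2.26 times that of Utp4 in M2, against 1.25, 1.29 and 1.40 times in M0. For Wdr75 over Utp4 the 3 M2 libraries gave 1.98 each, against 1.27, 1.28 and 1.297 in M0. Without M0 replicate 3 the Utp4 call was lost (adjusted p = 0.0571 by limma).

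The U3 snoRNP pairs with the precursor at the heart of the processome. Rrp9, a protein bound to it, had 54.2, 49.98 and 54.04 TPM in M2, against 28.7, 30.1 and 28.5 TPM in M0, a log2 fold change of 0.84 (SE 0.060). Imp3 and Imp4, which help U3 RNA pair with the precursor, moved less. Imp3 stood at 124, 119 and 146 TPM in M2, against 95.7, 91.3 and 98.98 TPM in M0, and Imp4 at 64.03, 62.3 and 64.4 TPM in M2, against 50.3, 51.95 and 49.6 TPM in M0. Their log2 fold changes were 0.44 (SE 0.079) and 0.32 (SE 0.052). Tbl3, a WD-repeat subunit of the UTP-B complex, was 1.21-fold higher in M2 and Utp18, of the same complex, 1.67-fold. Utp18 had 59.97, 67.1 and 67.9 TPM in M2, against 36.9, 39.9 and 39.6 TPM in M0.

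Other processome factors lay between these. Utp20, a large scaffold, had 17.1, 18.6 and 14.2 TPM in M2, against 9.9, 12.1 and 12.1 TPM in M0, a log2 fold change of 0.51 (SE 0.11). Its M2 replicate 3 is the lowest of its group, as for Heatr1. Utp14a, an activator of the helicase step that takes U3 off, rose 1.45-fold, the helicase gene Ddx10 1.49-fold, Nop14 1.35-fold and its partner Noc4l 1.28-fold. Enzymes that modify the small-subunit RNA were higher as well. Nat10, an RNA cytidine acetyltransferase, averaged 19.6 ± 1.17 TPM in M2 and 12.3 ± 0.895 TPM in M0, Dimt1, an adenosine dimethyltransferase, 16.5 ± 0.552 TPM in M2 and 10.1 ± 1.199 TPM in M0, and Emg1, a pseudouridine methyltransferase, 234 ± 21.2 TPM in M2 and 194 ± 3.13 TPM in M0 (SD, n = 3 each). Emg1 was the most abundant small-subunit member in both groups and among the least changed, and its call was lost without M0 replicate 2 (adjusted p = 0.0502 by limma).

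Late factors travel with the pre-small subunit toward and into the cytoplasm. Tsr1, a GTPase-like protein that keeps the immature subunit from joining in translation, had 75.4, 78.3 and 66.5 TPM in M2, against 34.9, 38.1 and 36.04 TPM in M0, a log2 fold change of 0.99 (SE 0.073). Nob1, the endonuclease that makes the last cut of the small-subunit RNA, had 73.5, 66.8 and 72.97 TPM in M2, against 43.8, 44.5 and 46.2 TPM in M0, a log2 fold change of 0.65 (SE 0.059). Pno1, which binds that RNA beside Nob1, had 106, 113 and 109 TPM in M2, against 74.1, 76.2 and 73.2 TPM in M0, a log2 fold change of 0.54 (SE 0.052). All 3 were fully separated. Ltv1, a further late factor, was 1.37-fold higher, and Rrp12, an export factor, 1.71-fold. Bysl moved least of the small-subunit factors, at 21.1, 21.9 and 22.7 TPM in M2, against 19.5, 19.2 and 19.8 TPM in M0. Its groups did not overlap, yet its log2 fold change of 0.16 (SE 0.063) did not pass. Bysl passed under 2 of 13 alternatives, median-ratio scaling (adjusted p = 0.0438) and the authors' log2-scale values (adjusted p = 0.0324), within a range of 0.0324 to 0.198 by limma over the 13. Relative to Bysl, the TPM of Tsr1 was 3.58, 3.58 and 2.93 in M2, against 1.79, 1.99 and 1.82 in M0.

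Some of these genes share exon sequence with a neighbour on the other strand, and the sources used here do not say whether reads were counted by strand. In the GENCODE M21 basic annotation Tsr1 shares 34.2% of its exon bases with Srr, which encodes serine racemase, Dimt1 37.3% with Kif2a, Tbl3 25.8% with Noxo1 and Noc2l 20.9% with Samd11. Utp14a shares 18.9% with the non-coding gene 9530027J09Rik, whose level was not looked up. Srr itself stood at 22.8, 24.7 and 21.5 TPM in M2, against 12.1, 12.3 and 12.1 TPM in M0, so reads of Tsr1 and Srr cannot be told apart in the shared part. Kif2a had 18.9 to 23.1 TPM in M2 and 21.3 to 22.8 TPM in M0, and Noxo1 0.521 to 0.835 TPM in M2 and 0.685 to 0.978 TPM in M0, with groups that overlapped in both. Samd11 had 16.2 to 20.1 TPM in M2, against 13.5 to 15.8 TPM in M0, so its groups were separated in the same direction as those of Noc2l. Bysl shares 9.37% with Ccnd3 on the other strand, and Ccnd3 was lower in M2, at 41.1 to 48.1 TPM, against 75.0 to 80.2 TPM in M0. The part of such sharing in the values was not tested.

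For the large subunit, the PeBoW complex of Pes1, Bop1 and Wdr12 is needed to process the precursor of its RNAs. Wdr12 stood at 64.2, 70.3 and 67.5 TPM in M2, against 34.7, 35.6 and 34.5 TPM in M0, a log2 fold change of 0.93 (SE 0.057). Pes1 had 93.3, 95.8 and 93.9 TPM in M2 and 60.9, 63.8 and 61.1 TPM in M0, a log2 fold change of 0.60 (SE 0.051). Bop1 had 87.03, 82.5 and 84.4 TPM in M2 and 62.5, 62.2 and 66.6 TPM in M0, a log2 fold change of 0.40 (SE 0.055). All 3 rose, Wdr12 most. Its TPM was 0.688, 0.734 and 0.720 of that of Pes1 in M2, against 0.570, 0.557 and 0.564 in M0, so Wdr12 stood closer to Pes1 in M2 cells. Bop1 over Pes1 gave 0.933, 0.861 and 0.900 in M2, against 1.03, 0.974 and 1.09 in M0. The models of Wdr12 and Pes1 are 2822 and 2894 bases long.

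**Figure D3:**
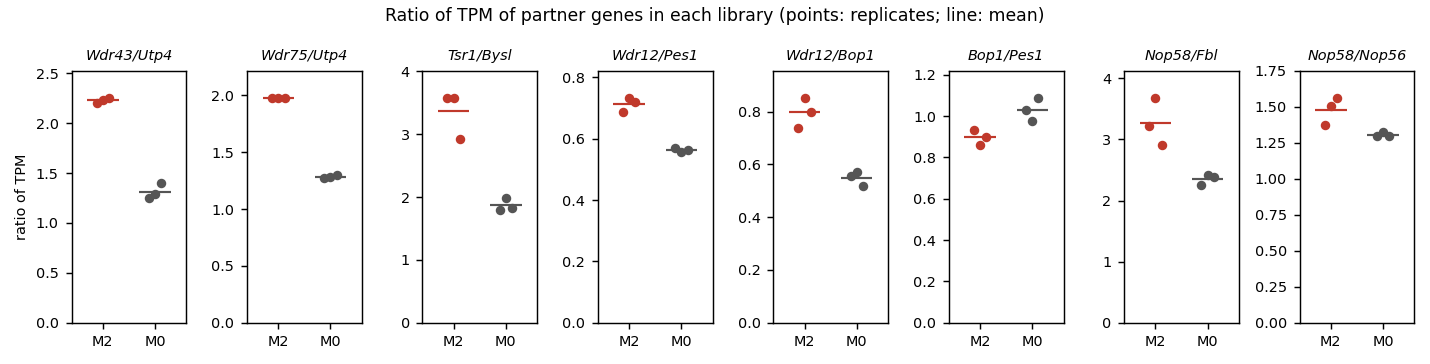
Ratio of TPM of 8 pairs of partner genes in each library, M2 left of M0, with points for replicates and a line at the mean (n = 3). The ratio of Wdr75 to Utp4 is 1.98 in each M2 library, against 1.27 to 1.297 in M0, and that of Bop1 to Pes1 is the 1 ratio of these 8 that is lower in M2. The pairs were chosen with their fold changes known.

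Gnl3, the GTP-binding protein nucleostemin, had the largest change of the large-subunit factors, at 71.1, 79.2 and 81.7 TPM in M2, against 37.9, 40.1 and 37.9 TPM in M0, a log2 fold change of 0.98 (SE 0.066). Nop2, a cytosine methyltransferase of the large-subunit RNA, had 122, 126 and 122 TPM in M2, against 64.4, 68.1 and 64.9 TPM in M0, a log2 fold change of 0.90 (SE 0.051). Ppan and Rrs1, which work in early assembly of the large subunit, followed. Ppan had 71.02, 66.9 and 70.6 TPM in M2, against 35.8, 36.8 and 37.97 TPM in M0 (log2 fold change 0.90, SE 0.056), and Rrs1 107, 109 and 113 TPM in M2, against 53.1, 60.6 and 62.6 TPM in M0 (log2 fold change 0.89, SE 0.070). Brix1, related to Ppan in sequence, stood at 73.3, 76.5 and 75.7 TPM in M2, against 48.3, 46.6 and 48 TPM in M0, a log2 fold change of 0.65 (SE 0.052). Nip7, a factor of large-subunit assembly in yeast, averaged 44.7 ± 2.04 TPM in M2 and 24.3 ± 1.15 TPM in M0 (SD, n = 3 each). Each of these 6 genes had all M2 libraries above all M0 libraries, by at least 1.52 times between the nearest ones.

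The NOC proteins Noc2l and Noc3l chaperone the pre-large subunit as a pair. Noc3l was 1.69-fold higher in M2 and Noc2l 1.34-fold, so that the TPM of Noc3l was 0.297, 0.302 and 0.254 of that of Noc2l in M2, against 0.227, 0.222 and 0.228 in M0. Ftsj3, an RNA methyltransferase, was 1.55-fold higher, Rrp1b 1.67-fold, Nop16 1.51-fold, Mrto4, which is related to a protein of the ribosomal stalk, 1.45-fold, and Ebna1bp2 1.39-fold. The last 3 had their highest M2 value in replicate 3. Of the 4 RNA helicases in the large-subunit group, which unwind or remodel the precursor, Ddx18 changed most, at 78, 81.6 and 87.1 TPM in M2, against 49.8, 52.3 and 53.5 TPM in M0 (log2 fold change 0.65, SE 0.061). Ddx56 had 37.4, 36.8 and 39.9 TPM in M2 and 30.6, 28.8 and 30.1 TPM in M0 (log2 fold change 0.34, SE 0.061), and Ddx27 65.3, 65.4 and 65.4 TPM in M2 and 51.8, 57.1 and 55.5 TPM in M0 (log2 fold change 0.25, SE 0.056). Ddx51 was the least abundant member of all, at 9.36, 10.4 and 8.26 TPM in M2, against 7.38, 6.85 and 7.82 TPM in M0. Its log2 fold change of 0.31 (SE 0.099) passed narrowly, and the call was lost under 7 of 13 alternatives, which included leaving out either M2 replicate 1 or 2 or any single M0 library. The largest adjusted p among them was 0.123 by limma.

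Nucleolin (Ncl) and nucleophosmin (Npm1) are the abundant proteins of the nucleolus. Npm1, a histone and ribosome chaperone, was the most abundant member, at 1056, 1172 and 1238 TPM in M2, against 774, 791 and 768 TPM in M0, a log2 fold change of 0.57 (SE 0.070). Ncl stood at 328, 359 and 341 TPM in M2, against 205, 231 and 224 TPM in M0, a log2 fold change of 0.64 (SE 0.064). Their groups were well apart. The TPM of Npm1 over that of Ncl was 3.22, 3.26 and 3.64 in M2, against 3.78, 3.42 and 3.43 in M0, and overlapped between groups. The authors' model for Ncl is 8241 bases long, and GENCODE M21 also holds a shorter Ncl transcript, so its level in TPM depends on that choice. Ddx21, a helicase that binds both precursor RNA and snoRNAs, had 93.7, 98.8 and 87.3 TPM in M2, against 52.8, 58.4 and 59.4 TPM in M0, a log2 fold change of 0.70 (SE 0.069). Rrn3, the factor that brings RNA polymerase I to its promoter, had 31.7, 33.2 and 29.8 TPM in M2, against 23.03, 26.5 and 25.8 TPM in M0, a log2 fold change of 0.32 (SE 0.074), and Mybbp1a, a nucleolar partner of MYB, 110.1, 106 and 86.4 TPM in M2, against 76.4, 80.5 and 77.5 TPM in M0, a log2 fold change of 0.36 (SE 0.088). These last 2 moved least of the 5.

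Among the M2 libraries, replicate 3 departed from the other 2 by transcript length. Its deviation from the mean of M2 replicates 1 and 2 had a Spearman rho of -0.654 with model length over the 57 genes, and of -0.609 over all tested genes, as a description. Each M0 library was likewise set against the mean of the others in its group. Over all tested genes the rho was -0.416, 0.437 and 0.0321 for M0 replicates 1, 2 and 3. For M2 replicates 1 and 2 it was 0.33 and 0.563, with replicate 3 among the libraries they were set against. The median deviation on log2(TPM + 1) was 0.098 for the 17 members with models under 2000 bases, -0.0057 for the 20 from 2000 to below 3000 bases, and -0.131 for the 20 of 3000 bases or more. Heatr1 and Utp20, with models of 6729 and 8767 bases, are examples, with M2 replicate 3 the lowest of its group, while Ncl, at 8241 bases, had its lowest M2 value in replicate 1. Without M2 replicate 3 the median log2 fold change was 0.52, 0.50 and 0.67 in the 3 length classes, against 0.54, 0.49 and 0.64 with it. Without that library 55 members rose and 0 fell, where 25.6% of all tested genes rose, against 20.1% with it.

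**Figure D4:**
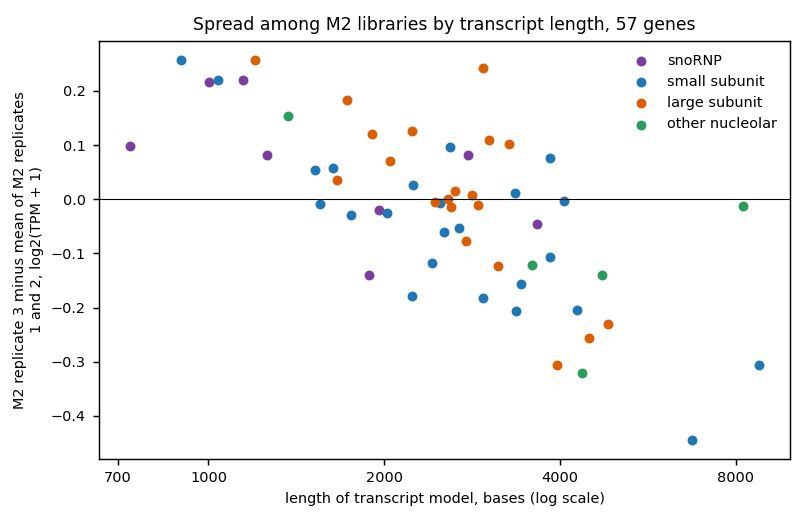
Deviation of M2 replicate 3 from the mean of M2 replicates 1 and 2 on log2(TPM + 1), against the length of the transcript model in bases (log axis), for each of the 57 genes, coloured by role. Short models lie mostly above 0 and long ones below it, with a Spearman rho of -0.654.

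The rest of the pathway was read from 122 further genes listed by role, none of them among the 57, and all 122 passed the filter. Of these, 84 rose, 2 fell and 36 did not pass, with a median log2 fold change of 0.36, where 20.1% of all tested genes rose, 23.7% fell and the median was -0.03. By role, 30 of 40 small-subunit genes rose, 35 of 49 large-subunit genes, 6 of 11 snoRNP genes, 9 of 15 RNA exosome genes and 4 of 7 polymerase I factors. Rcl1, a protein of the processome, stood at 47.1, 45.7 and 43.8 TPM in M2, against 21.98, 22.5 and 22.7 TPM in M0 (log2 fold change 0.99, SE 0.058, adjusted p = 6.77e-06 by limma). Aatf, a processome subunit, was 1.88-fold higher (adjusted p = 6.02e-05 by limma). Nifk, which binds the proliferation protein Ki-67, had 147, 159.8 and 161 TPM in M2, against 77.3, 81.2 and 77.9 TPM in M0 (log2 fold change 0.98, SE 0.057, adjusted p = 6.25e-06 by limma), and Spata5, an ATPase that frees a factor from the large subunit, was 1.96-fold higher. These 4 had the largest rises of their roles, and Aatf and Spata5 had log2 fold changes of 0.88 and 0.91.

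Of the snoRNP assembly genes, Znhit6 was 1.61-fold and Snu13, a box C/D core protein, 1.46-fold higher. Snu13 had 54.9, 56.5 and 55.8 TPM in M2, against 41.8, 36.8 and 35.7 TPM in M0. Among subunits of the exosome, which trims precursor ends, Exosc6 rose 1.77-fold and Exosc7 1.53-fold. Ubtf, the factor that opens ribosomal DNA for polymerase I, rose 1.47-fold to 68.9 ± 1.95 TPM in M2, against 46.7 ± 1.77 TPM in M0 (SD, n = 3 each), and Taf1d, of the polymerase I selectivity factor, 1.45-fold. The 2 that fell were the large-subunit genes Rrp1, at 73.5, 72.5 and 74.2 TPM in M2, against 79.01, 87.5 and 91.6 TPM in M0 (adjusted p = 0.0205 by limma), and Nop53, at 81.1, 78.2 and 87.7 TPM in M2, against 92.2, 91.7 and 99.1 TPM in M0 (adjusted p = 0.0327 by limma). Rrp1 and its paralog Rrp1b thus went opposite ways. These 2 falls were not stable, with 0 to 2 falls over the alternatives. In the start regions of this list CACGTG occurred in 17 of 97 genes (17.5%), and 10 of its 20 sites lay after the start.

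**Figure D5:**
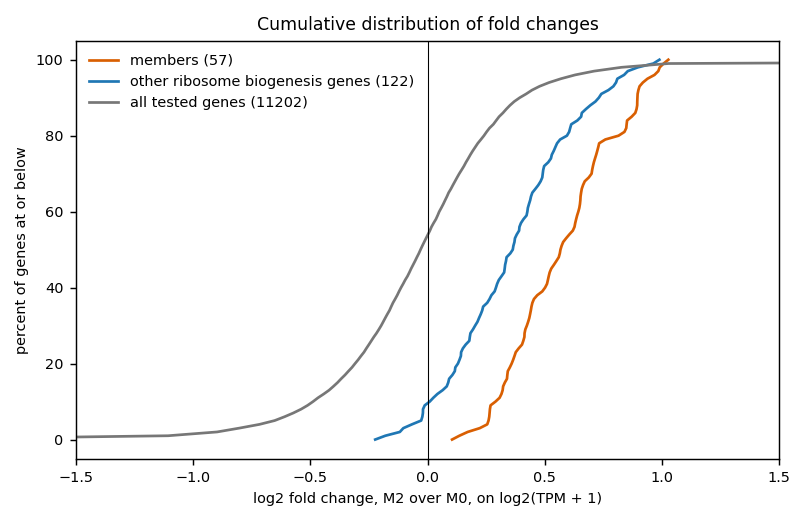
Percent of genes at or below each log2 fold change of M2 over M0 on log2(TPM + 1), for the 57 members, 122 other ribosome biogenesis genes and all 11202 tested genes. The curve of the members lies wholly right of 0, with a median of 0.57, against 0.36 for the other ribosome biogenesis genes and -0.03 for all tested genes.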

How the data were processed

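Poly(A) RNA of 3 M2 and 3 M0 libraries was measured, with groups and replicate numbers from the sample titles. The build mm10 and the tools HOMER 4.11.1, STAR 2.7.5a, DESeq2 and bcl2fastq come from the submitters' processing notes, which give no role for each. Per the file headers, the authors deposited TPM per library for 25124 genes with 1 transcript model each. A second table deposited by the authors holds log2-scale values per library (read so from their range) and, per the file headers, the authors' comparison (log2 fold change with raw and adjusted p-value). A positive sign means higher in M2, which held in the columns per library for all 5047 called rows.

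A gene was tested where 3 or more libraries reached a TPM of 1, and fitted by group with limma 3.58.1 in R 4.3.3 on log2(TPM + 1), with a variance trend and Benjamini-Hochberg adjustment over all 11202. At low TPM this scale gives too small a change. Calls use an adjusted p under 0.05, means and SDs are of TPM, and folds are ratios of mean TPM. The product of TPM and model length is a whole multiple of 1 read, with 100.0% of the values precise enough to tell within 0.1 read of a whole number, which gave the reads per library. On simulated reads over 11202 genes, the fit recovered 72% of genes raised 1.3-fold, 98% of those raised 1.6-fold and 100% of those raised 2-fold. It recovered 92% of genes lowered to 0.5-fold. Of its calls there, 5.73% were false. The simulation changed 50 genes at each fold, gave all genes the same level of spread and held no tilt by transcript length. These shares describe the fit under such settings and are not error rates for the real libraries. Libraries of 1 group differed by more than sampling noise (chi-square per degree of freedom of at least 2.18), so none was counted as a duplicate.

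The members and all lists, roles and pairs were chosen with earlier results of these data known, and members may all be named. Of the 122 further pathway genes, those named are the 2 largest called rises and 2 largest called falls of each role. Alternatives were a pseudocount of 0.1, no filter, a TPM minimum of 5, median-ratio scaling, the authors' log2-scale values, limma-voom on recovered reads, a replicate block and each library left out. Python 3.11.15, numpy 2.4.6, pandas 2.3.3 and matplotlib 3.10.9 were also used.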

Additional observations from a re-analysis of the deposited data

How the results depend on the processing

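Over 13 alternatives 53 to 56 members rose and 0 fell, and no member changed direction. The share of all tested genes that rose ran from 10% with no filter to 25.6% without M2 replicate 3. The single calls that changed were those of Utp4, Bysl, Emg1 and Ddx51, given with the results. The median log2 fold change of all members was 0.57, against 0.60 with median-ratio scaling, 0.50 on the authors' log2-scale values, and 0.56 to 0.61 with each library left out. For large-subunit factors it was 0.64, against 0.67 with median-ratio scaling, 0.57 on the authors' log2-scale values, and 0.61 to 0.65 with each library left out. For small-subunit factors it was 0.53, against 0.48 on the authors' log2-scale values. Of the further pathway genes 71 to 92 rose. The 2 falls became 1 without the filter on low values, with median-ratio scaling, on the authors' log2-scale values and with limma-voom, and 0 to 2 with each library left out. The cause was not tested.

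With the replicate number as a block 54 members rose, as did 82 of the further pathway genes, where 19.96% of all tested genes rose. Deviations of same-numbered libraries correlated at -0.0329, 0.211 and 0.0289, and those of differently numbered ones at -0.202 to 0.166. These values cannot decide whether the numbers pair the samples, since deviations within a group depend on each other. The fewest reads of any member in a library were 335, for Dimt1, whose call held under the 13 alternatives. Ddx51, the least abundant member by TPM, had at least 500.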
